A study of Danio rerio with 4 samples.

Results

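The genes described here encode the factors that start, carry forward and end the synthesis of proteins on cytoplasmic ribosomes, together with the cytoplasmic poly(A)-binding proteins and the kinases that act on eIF2. They were chosen by gene symbol alone (names beginning with eif1 to eif6, eef1, eef2, etf1, gspt1 or pabpc, with eif2ak2 left out), which gave 96 of the 32434 genes in the table. Of these, 93 had enough reads to be tested, 91 had at least 1 read in every library and 8 averaged under 10 reads per library. The 96 genes carry 91 distinct symbols, since several factors have copies that share a name. A few names match the rule without being translation factors, among them 5 genes named eif2c, which encode Argonaute proteins of small RNA silencing.

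Polyadenylated RNA was sequenced from progenitor cells that were sorted by light scatter. They came from adult zebrafish kidney marrow, in which fish make their blood cells. The groups were 2 libraries from tet2 mutant fish and 2 libraries from wild-type fish. The mutants are homozygous for a small deletion, made with zinc-finger nucleases, that disrupts the catalytic activity of Tet2, an enzyme that oxidises methylated cytosine in DNA. All mutant libraries come from a single line. Titles and descriptions of the samples disagree on age, with 4 months in every title and 15 months in every description, and the study's account of the comparison follows the titles. The study calls its replicates biological pools where it describes methylation and took RNA from part of the same sorted cells, while the labels do not say how many animals a pool held. The p-values below measure only the spread between these samples.

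In eukaryotes the cap of an mRNA is bound by eIF4F, which consists of the cap-binding protein eIF4E, the scaffold eIF4G and the RNA helicase eIF4A. The complex recruits a small ribosomal subunit that already carries eIF1, eIF1A, eIF3, eIF5 and the initiator tRNA held by eIF2. After the start codon is found, eEF1A delivers aminoacylated tRNAs, eEF2 moves the ribosome along and eRF1 with eRF3 releases the finished chain, while poly(A)-binding protein links the tail of the mRNA to eIF4G. In red cell precursors the kinase HRI, encoded by eif2ak1, matches this machinery to the supply of heme by phosphorylating eIF2.

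Total counts ranged from 9252853 to 10710913 in tet2 mutant libraries and from 8838603 to 9200225 in wild-type libraries, and 18359 to 18739 genes had at least 1 read. Levels are given as CPM, read counts scaled to a common library size with TMM factors (a trimmed mean of log ratios between libraries). A count of 0 in 1 library allows up to 0.271 to 0.396 CPM (3 counts), which covers counting error only. The tet2 transcript had 23.7 and 25.5 CPM in mutant libraries and 33.8 and 24.4 CPM in wild-type libraries (log2 fold change -0.23 ± 0.22, SE, edgeR adjusted p = 0.683), and a small deletion need not alter this level. Of the 16 progenitor markers, 15 were detected in all libraries. Their summed levels were 852.4 to 1006 CPM in mutant libraries and 826.9 to 885.1 CPM in wild-type libraries. Single markers differed, and of the 15 tested 6 had a log2 fold change above 0 and 9 below. At an edgeR adjusted p under 0.05, fli1a (1.08) and meis1 (0.925) were higher and gfi1ab (-1.67) was lower. With DESeq2 the adjusted p was 0.061 for fli1a, 0.528 for meis1 and 0.0119 for gfi1ab. Wild-type replicate 2 stood apart from the rest for many of the genes described here, and its values are given where they bear on a result.

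The comparison asked which of these factors have altered transcript levels in progenitors that lack Tet2 catalytic activity. The transcript of pabpc1b fell in the mutants, and 0 of the other factors were called. Called genes are those whose edgeR adjusted p was below 0.05 and whose log2 fold change was over 1 in either direction. Among the 93 tested factors the call went to 1 that was lower and to 0 that were higher, a share of 1.08%, whereas 3.71% of all 17242 genes tested were called, 1.9% lower and 1.8% higher. Before adjustment, 5 of the factors had an edgeR p under 0.05 upwards and 3 downwards (5.38% and 3.23%, against 8.73% and 8.37% of all genes). Other fits gave the same 1 lower and 0 higher factors, on a background of 0.609% higher and 0.69% lower for DESeq2, 0.702% higher and 0.795% lower for edgeR without the replicate block, and 0.516% higher and 0.632% lower for the bias-adjusted form of edgeR. The median log2 fold change of the 93 genes was -0.02, beside -0.01 over all genes tested. Of the 93, 43 were above 0 (46.2%, against 49.3% of all genes). Both mutant libraries lay above both wild-type libraries in 19 of the 93 (20.4%, against 23.1% of all genes). Both lay below in 14 (15.1%, against 21.7%). The libraries are bulk samples, in which fewer cells of a type and less RNA per cell cannot be told apart.

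Among the 88 factors with a mean of at least 10 reads per library, log2 fold changes ran between -1.95 for pabpc1b and 0.89 for one copy of eif2b1. The central 95% of all genes with that many reads lay between -1.34 and 1.27, and pabpc1b was the only one of the 88 outside this range. The value farthest from 0 among all 93 was that of EEF1A2, which rested on 1 and 6 reads in mutant libraries and 0 and 1 reads in wild-type libraries. At any fold, 3 factors passed an edgeR adjusted p of 0.05 (3.23%, against 5.93% of all genes, of which 2.98% higher and 2.95% lower), namely eif4g2a, which was higher, and EIF3H (3 of 3) and pabpc1b, which were lower.

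**Figure D1:**
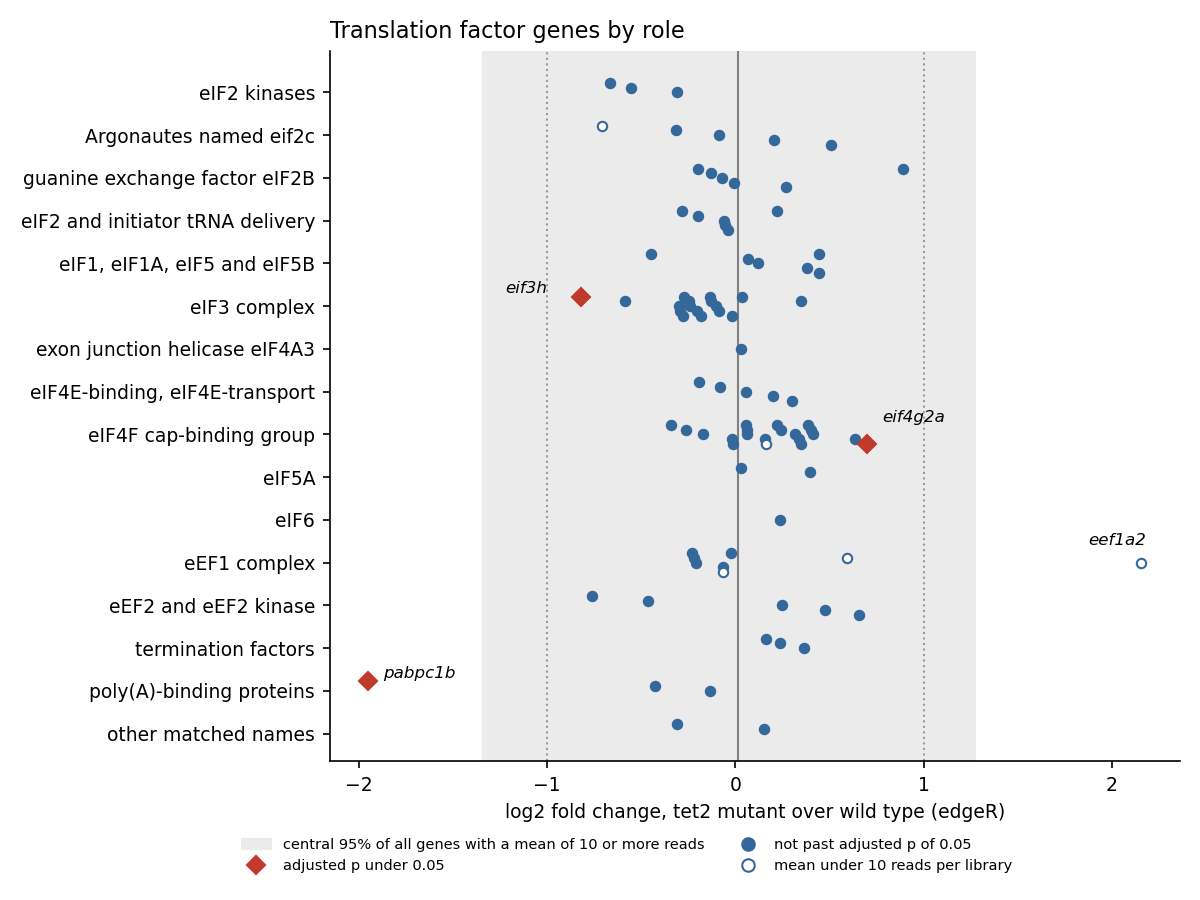
Log2 fold change of tet2 mutant over wild type (edgeR with the replicate block, x axis) for the 93 tested translation factor genes, arranged by role (y axis); diamonds mark an adjusted p under 0.05, open circles a mean under 10 reads per library, dotted lines a log2 fold change of -1 and 1, and the grey band the central 95% of all genes with at least 10 reads. The points of most roles lie close to 0, and pabpc1b at -1.95 is the only gene with at least 10 reads outside the band.

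The poly(A)-binding protein gene pabpc1b (ENSDARG00000021140) encodes one of the PABPC1 copies of zebrafish. It had 402 and 421 reads in tet2 mutant libraries and 1227 and 1412 reads in wild-type libraries. After scaling these were 41.1 and 38.0 CPM in mutants and 125 and 186.3 CPM in wild type. Both mutant libraries lay far below both wild-type libraries, and the mutant replicates were close to each other. The means were 39.6 ± 2.2 CPM in mutants and 155.7 ± 43.3 CPM in wild type (SD, n = 2 each). This is a log2 fold change of -1.95 ± 0.23 (SE; 95% interval -2.42 to -1.48), a level 3.86-fold lower in the mutants (edgeR adjusted p = 4.197e-07). DESeq2 gave an adjusted p of 5.359e-09, edgeR without the replicate block 0.00184 and the bias-adjusted form of edgeR 0.0146. With 1 library left out, the log2 fold change was -2.03 (mutant replicate 1 out) or -1.92 (mutant replicate 2 out). Wild-type replicate 1 left out gave -2.25 and wild-type replicate 2 left out gave -1.67, and the gene was called each time. Among the 26 genes called lower that averaged at least 500 reads per library, pabpc1b ranked 2 by size of fold change, a description chosen after its value was seen.

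None of the other poly(A)-binding protein genes passed the test. The main PABPC1 copy, pabpc1a, had 2099 and 2017 CPM in mutant libraries and 2539 and 3014 CPM in wild-type libraries. Its groups did not overlap, but the log2 fold change of -0.43 ± 0.40 (SE) did not pass the test (edgeR adjusted p = 0.673). For pabpc4, which encodes a related cytoplasmic protein, the log2 fold change was -0.13 ± 0.24, and pabpc1l had 0 reads in every library. Because pabpc1a supplied 94.2% to 98.1% of all PABPC1 reads, the sum over the copies had a log2 fold change of -0.48 ± 0.40 and was not called (edgeR adjusted p = 0.621). The share of PABPC1 reads that came from pabpc1b was 1.92% and 1.85% in mutant libraries and 4.69% and 5.82% in wild-type libraries. On the log2 scale the ratio of pabpc1b to pabpc1a reads was -5.67 and -5.73 in mutants and -4.34 and -4.02 in wild type, a difference of -1.52. The exact permutation test over libraries gave a two-sided p of 0.333, the smallest that 2 against 2 libraries allow, and this ratio was chosen after its values were seen. The counting of reads that match more than 1 copy is not described in the sources used, so the split between copies is uncertain.

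Marker lists of other cell types were read beside this result. Red cell markers summed to between 26630 and 39320 CPM in mutant libraries and between 61770 and 100900 CPM in wild-type libraries, with 1 of 13 called lower and 0 at 0 reads throughout. Most of this sum came from the globin genes hbaa1 and ba1, which did not pass (edgeR adjusted p = 0.311 and 0.443). Of the 13 red cell markers 2 were above 0 and 11 below. B cell markers summed to between 206.6 and 273 CPM in mutants and between 377.9 and 399.8 CPM in wild type, with 6 of the 8 tested called lower and 0 of 9 at 0 reads. Neutrophil markers summed to between 3867 and 7346 CPM in mutants and between 3133 and 4614 CPM in wild type, which overlap. Of the 14, 9 were above 0 and 5 below, and 1 was called higher, mmp13a (1.17 ± 0.28, edgeR adjusted p = 0.00855). At any fold mmp9 also passed upwards (0.80 ± 0.235, edgeR adjusted p = 0.0359) and csf3r downwards (-0.92 ± 0.22, edgeR adjusted p = 0.00869). The groups of csf3r overlapped, at 117 and 25.4 CPM in mutants and 181.2 and 59.5 CPM in wild type. Without the replicate block the edgeR adjusted p was 0.103 for mmp13a, 0.347 for mmp9 and 0.612 for csf3r. Macrophage markers, many of them copies named mfap4, summed to between 2356 and 3629 CPM in mutants and between 1882 and 2512 CPM in wild type, which also overlap, with 4 of the 23 tested called higher and 6 lower. Thrombocyte markers were separate upwards in sum, at 581.4 and 643 CPM in mutants and 536.6 and 466 CPM in wild type, with 0 of 8 called. So were those of endothelium and stroma, at 99.7 and 115.5 CPM in mutants and 74.6 and 45.9 CPM in wild type. Of the 7 tested 1 was called higher, fli1a, and 4 were below 0. Most of the sum in each library came from fli1a, with 63.9 and 109.4 CPM in mutants and 46.4 and 33.4 CPM in wild type. This gene is also in the progenitor list, and its adjusted p was 0.061 with DESeq2. Of the 11 oocyte markers 3 were at 0 reads throughout. Nearly all reads of that list came from ccnb1, a mitotic cyclin of dividing cells. It had 64.7 and 68.1 CPM in mutants and 113.6 and 113.2 CPM in wild type. Skeletal muscle markers were separate downwards in sum, at 67.4 and 52.4 CPM in mutants and 76.8 and 78.1 CPM in wild type. Most of that sum came from acta1b, with 60.9 and 46.9 CPM in mutants and 68.8 and 69.3 CPM in wild type. Of the 14 muscle markers 7 were at 0 reads throughout. Of the 7 tested 3 were above 0 and 4 below, with 0 called. Kidney tubule sums (219.1 to 429.3 CPM in mutants, 341.4 to 456.8 CPM in wild type) overlapped. So did T and NK cell sums, and 0 were called in either list. Most of the tubule sum came from slc20a1a, with 314.7 and 180.2 CPM in mutants and 406.3 and 300 CPM in wild type. Of the 10 tested tubule markers 9 were above 0 and 1 below, with a median of 1.31 that includes genes with few reads. Most of the T and NK cell sum came from ptprc, with 226 and 341.1 CPM in mutants and 269.2 and 224.7 CPM in wild type. The tubule marker cdh17 had 256 and 27 reads in mutants and 43 and 28 reads in wild type. For atp1a1a.4 these were 349 and 24 reads in mutants and 82 and 38 reads in wild type. Another, trpm7, had 367 and 368 reads in mutants and 328 and 232 reads in wild type. The calls above are those of edgeR. With DESeq2 they were 0 higher and 2 lower for red cell markers and 0 higher and 3 lower for B cell markers. Macrophage markers had 3 higher and 3 lower with DESeq2, and the other lists of this paragraph had 0. Over all genes 1.8% were called higher and 1.9% lower with edgeR, and 0.609% higher and 0.69% lower with DESeq2. The part of these values in the pabpc1b result was not tested.

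**Figure D2:**
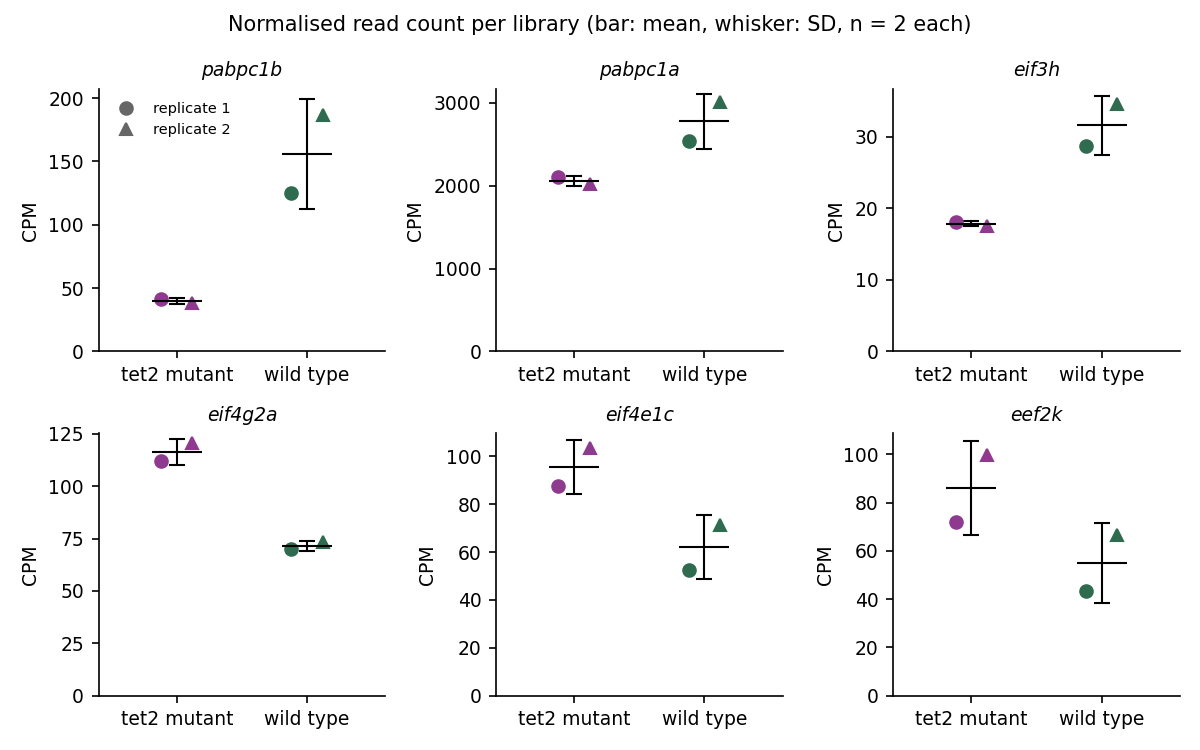
Normalised read count (CPM, y axis, starting at 0) of 6 genes in the tet2 mutant (left) and wild-type (right) libraries; circles are replicate 1, triangles replicate 2, the horizontal bar is the mean and the whisker the SD (n = 2 each). The mutant libraries of pabpc1b sit at 41.1 and 38.0 CPM, far below 125 and 186.3 CPM in wild type, while the groups lie closer together for pabpc1a, eif3h, eif4g2a, eif4e1c and eef2k.

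Of the 20 tested genes of the eIF4F cap-binding group 15 had a log2 fold change above 0 and 5 below, while 49.3% of all genes were above 0. The median of the group was 0.19 beside -0.01 over all genes. That median was 0.09 with wild-type replicate 1 left out and 0.32 with wild-type replicate 2 left out. In 10 of the 20 both mutant libraries lay above both wild-type libraries and in 2 both lay below, whereas such separation upwards occurred in 23.1% and downwards in 21.7% of all genes. Of the 20 genes, 0 were called by edgeR or DESeq2, while edgeR called 3.71% of all genes and DESeq2 0.609% higher and 0.69% lower. Before adjustment 2 had an edgeR p under 0.05, both upwards, against 8.73% of all genes. At any fold 1 passed the edgeR adjusted p, upwards, against 2.98% of all genes.

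That gene was eif4g2a (ENSDARG00000020377), which encodes an eIF4G relative, known in mammals as DAP5, that lacks the eIF4E-binding site and takes part in translation independent of the cap. It had 112.1 and 120.8 CPM in mutant libraries and 70.0 and 73.4 CPM in wild-type libraries. The groups were clearly separate and each pair of replicates was close. The log2 fold change was 0.70 ± 0.21 (SE; 95% interval 0.27 to 1.13, edgeR adjusted p = 0.0421). Counted apart from its partner copy, the gene kept a log2 fold change of 0.65 to 0.75 in every alternative, but the adjusted p was 0.107 without the replicate block, 0.197 with DESeq2, 0.0575 with DESeq2 size factors, and 0.0701 without mutant replicate 1 to 0.269 without mutant replicate 2. Its partner copy eif4g2b had a log2 fold change of 0.35 ± 0.25, and the sum over both copies had 0.44 ± 0.26 (edgeR adjusted p = 0.429).

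The cap-binding proteins themselves gave 1 value near the threshold in edgeR with the replicate block. A member of the eIF4E family found in aquatic vertebrates, eif4e1c, had 87.5 and 103.5 CPM in mutant libraries and 52.5 and 71.4 CPM in wild-type libraries. Its log2 fold change was 0.64 ± 0.21 (SE, edgeR adjusted p = 0.0655), and the gene was picked after its value was seen. This copy supplied 53.5% and 57.1% of the eIF4E reads in mutants and 45.7% and 48.5% in wild type. Summed over the 4 copies, eIF4E had 163.6 and 181.1 CPM in mutants and 114.8 and 147.2 CPM in wild type (0.41 ± 0.22 on the log2 scale, edgeR adjusted p = 0.379). The copy eif4e1b, known in zebrafish from gonads and early embryos, was barely detected, with 6 and 0 reads in mutant libraries and 0 and 4 reads in wild-type libraries.

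The helicase and scaffold subunits of eIF4F were measured with many reads. The main eIF4A copy, eif4a1b, had 900.3 and 897.4 CPM in mutant libraries and 845.1 and 877.4 CPM in wild-type libraries, a log2 fold change of 0.06 ± 0.32 (SE) that did not pass. All 4 libraries lay within a narrow range. The main eIF4G1 copy, EIF4G1 (1 of 3), had 367.7 and 379.4 CPM in mutants and 270 and 296.4 CPM in wild type, and its log2 fold change of 0.40 ± 0.26 also did not pass (edgeR adjusted p = 0.48). The 4E-binding proteins, which hold eIF4E away from eIF4G, showed no passing difference. Among them eif4ebp1 had 147 and 204.3 CPM in mutants and 130.3 and 151.6 CPM in wild type (log2 fold change 0.30 ± 0.23), and eif4ebp3l, the most read of these proteins' genes, had 0.06 ± 0.28. The related helicase eif4a3, which belongs to the exon junction complex and not to eIF4F, had a log2 fold change of 0.03 ± 0.23.

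The eIF3 complex, the large scaffold on the small ribosomal subunit, had most values below 0. Of its 17 tested genes 15 had a log2 fold change below 0 and 2 above, with a median of -0.20. EdgeR and DESeq2 called 0 of them, while edgeR called 3.71% of all genes and DESeq2 0.609% higher and 0.69% lower. For 1 gene, downwards, the edgeR p was under 0.05 before adjustment (8.37% of all genes) and after it (2.95%). In 5 of the 17 both mutant libraries lay below both wild-type libraries and in 0 above. Over all genes such separation occurred downwards in 21.7% and upwards in 23.1%. Wild-type replicate 2 had the highest level of the 4 libraries in 16 of the 17 genes. Without that library the median was 0.02, and it was -0.39 with wild-type replicate 1 left out.

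The gene that passed was EIF3H (3 of 3) (ENSDARG00000036116), a minor copy of the regulatory subunit eIF3h. It had 177 and 195 reads in mutant libraries and 282 and 262 reads in wild-type libraries, or 18.1 and 17.6 CPM and 28.7 and 34.6 CPM. The groups did not overlap. The log2 fold change was -0.82 ± 0.22 (SE; 95% interval -1.26 to -0.38, edgeR adjusted p = 0.0168), but the adjusted p was 0.317 with DESeq2, 0.0906 without the replicate block and 0.0538 with TMM factors computed without translation, ribosomal and globin genes. Leaving out 1 library gave adjusted p-values of 0.0616 without mutant replicate 1, 0.168 without mutant replicate 2, 0.28 without wild-type replicate 2 and, still passing, 0.0362 without wild-type replicate 1. The main copy, eif3ha, carried 89.4% to 93.2% of the eIF3H reads, and the 3 copies summed gave -0.28 ± 0.27 on the log2 scale (edgeR adjusted p = 0.69). The most read eIF3 gene, eif3s10, which encodes the core subunit eIF3a, had 1377 and 1295 CPM in mutants and 1196 and 1417 CPM in wild type (log2 fold change 0.04 ± 0.35), and its groups overlapped.

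**Figure D3:**
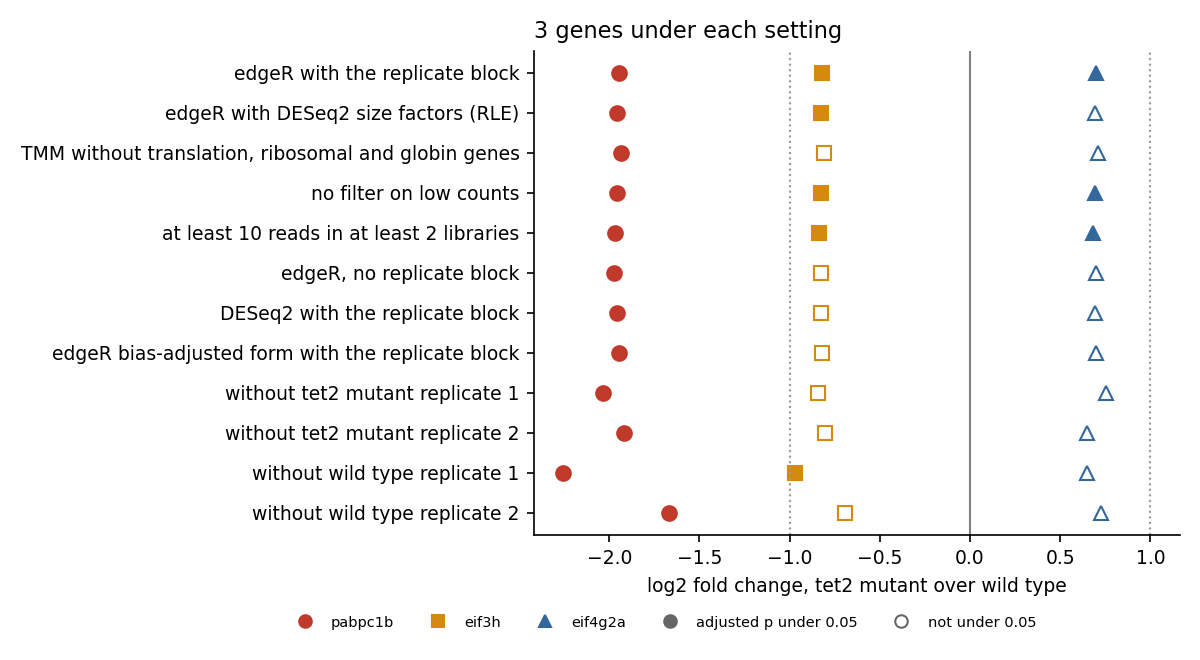
Log2 fold change of tet2 mutant over wild type (x axis) for pabpc1b (circles), eif3h (squares; EIF3H (3 of 3)) and eif4g2a (triangles) under each way of processing the counts (y axis); filled symbols have an adjusted p under 0.05, and dotted lines mark -1 and 1. The values of pabpc1b stay between -2.25 and -1.67 and are filled throughout, whereas those of eif3h and eif4g2a keep their size but are filled in only some of the fits.

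The genes of eIF2 and of the delivery of the initiator tRNA had small differences. Of the 6, 5 were below 0 and 1 above, and the median log2 fold change was -0.06. It was -0.29 when wild-type replicate 1 was left out and 0.16 when wild-type replicate 2 was, so its sign turned with the library. The most read, eif2s3, encodes the subunit that binds GTP and the tRNA, and had 826.2 and 773.8 CPM in mutant libraries and 721.4 and 954.8 CPM in wild-type libraries (-0.05 ± 0.32). Wild-type replicates alone spanned more than the difference between genotypes. For eif2d, which encodes a factor of alternative tRNA delivery, the level was 24.8 and 25.2 CPM in mutants and 30.1 and 30.7 CPM in wild type. These groups did not overlap, but the log2 fold change of -0.28 ± 0.21 (SE) did not pass (edgeR adjusted p = 0.555).

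The exchange factor eIF2B recharges eIF2 with GTP. Its most read subunit gene, eif2b4, had 58.1 and 60.8 CPM in mutant libraries and 56.5 and 63.2 CPM in wild-type libraries (log2 fold change -0.01 ± 0.20). The largest difference was in one copy of the regulatory subunit gene eif2b1 (ENSDARG00000088185), with 51 and 43 reads in mutants and 22 and 20 reads in wild type. The groups were separate, but the log2 fold change of 0.89 ± 0.41 (SE; 95% interval 0.06 to 1.72) did not pass (edgeR adjusted p = 0.244). A further gene of the same name had 24 and 18 reads in mutants and 16 and 13 reads in wild type, and the sum of both copies had 0.67 ± 0.34 (edgeR adjusted p = 0.316).

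All 3 kinases of eIF2 chosen by the rule had log2 fold changes below 0, with a median of -0.56. After adjustment 0 passed the edgeR test, against 5.93% of all genes at any fold. Before adjustment 1 had an edgeR p under 0.05, downwards, against 8.37% of all genes. DESeq2 called 0, while over all genes it called 0.609% higher and 0.69% lower. Without wild-type replicate 1 the median was -0.14. The heme-regulated kinase gene eif2ak1 had 50.2 and 39.3 CPM in mutant libraries and 59.3 and 71.9 CPM in wild-type libraries. Its groups did not overlap, and the log2 fold change was -0.56 ± 0.21 (SE; 95% interval -0.98 to -0.13, edgeR adjusted p = 0.126). The amino acid sensor gene eif2ak4, known as GCN2 in yeast and mammals, had 30 and 20 reads in mutants and 51 and 20 reads in wild type (-0.66 ± 0.42), and that of the endoplasmic reticulum kinase PERK, eif2ak3, had 33.0 and 21.0 CPM in mutants and 39.2 and 27.3 CPM in wild type (-0.31 ± 0.21). For eif2ak3 and eif2ak4 the groups overlapped. Red cell markers, whose sum above is mostly globin reads, were lower in sum in the same mutant libraries, and their part in the eif2ak1 value was not tested.

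Phosphorylated eIF2 favours translation of the transcription factor ATF4, so a list of targets of ATF4 and of CHOP was read beside the kinases. The edgeR call was upwards in 3 of 28 tested genes and downwards in 0, against 1.8% and 1.9% of all genes. DESeq2 with the block called 2 higher and 0 lower, against 0.609% and 0.69% of all genes. The median was 0.11 on the log2 scale (0.01 to 0.21 with 1 library left out). The asparagine synthetase gene asns had 68.4 and 64.6 CPM in mutant libraries and 32.8 and 30.0 CPM in wild-type libraries (1.08 ± 0.20, edgeR adjusted p = 5.79e-04). The gene of the mTORC1 inhibitor ddit4 had 89.5 and 75.4 CPM in mutants and 42.3 and 39.1 CPM in wild type (1.02 ± 0.20, edgeR adjusted p = 0.00144). Both passed DESeq2 with the block as well (adjusted p = 0.0163 for asns and 0.0218 for ddit4). The cystathionine lyase gene cth was called (1.09 ± 0.25, edgeR adjusted p = 0.00663) but had an adjusted p of 0.208 with DESeq2 and 0.091 without the block. At any fold, the transcription factor gene atf3 was higher (0.77 ± 0.21, edgeR adjusted p = 0.0251) and the amino acid transporter gene slc7a3a lower (-0.76 ± 0.24, edgeR adjusted p = 0.0495). These lost the threshold in other fits, with adjusted p-values for atf3 of 0.177 with DESeq2 and 0.2975 without the block, and for slc7a3a of 0.0926 with DESeq2 and 0.176 without the block. The genes of the factors themselves did not pass, with log2 fold changes of -0.04 for atf4b1, -0.05 for atf4b2 and -0.42 for ddit3, which encodes CHOP. Of the 28 genes, 15 were above 0 and 13 below.

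The factors of scanning and subunit joining had 5 genes above 0 and 1 below, with a median of 0.25. Of the 6, 0 had an unadjusted edgeR p under 0.05, against 8.73% of all genes upwards and 8.37% downwards, and DESeq2 called 0. Both mutant libraries lay above both wild-type libraries in 3 of the 6 and below in 1, against 23.1% and 21.7% of all genes. The median was 0.11 in the fit lacking wild-type replicate 1 and 0.38 in the fit lacking wild-type replicate 2. The gene of eIF5, which triggers GTP hydrolysis on eIF2 at the start codon, had 483.2 and 445.9 CPM in mutant libraries and 530.2 and 753.9 CPM in wild-type libraries. Its groups did not overlap, but most of the distance came from wild-type replicate 2, and the log2 fold change of -0.45 ± 0.29 (SE) did not pass (edgeR adjusted p = 0.491). The gene of eIF5B, which joins the large subunit, had 141.1 and 148.2 CPM in mutants and 98.3 and 115.1 CPM in wild type. That difference ran upwards and was also separate between groups, at 0.44 ± 0.22 (edgeR adjusted p = 0.296), and it was picked after its value was seen. The gene of eIF6, which keeps the large subunit from joining too early, had 0.24 ± 0.21.

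Elongation factors took more of the reads than initiation factors did. Reads of all 96 genes made up 5.89% and 5.68% of the total in mutant libraries and 5.70% and 6.32% in wild-type libraries, and the eEF1 genes alone 2.92% and 2.82% in mutants and 2.81% and 3.30% in wild type. The exact permutation test over libraries gave p = 0.667 for all 96 genes, with 0.333 the smallest possible. A single gene, eef1a1l1, which encodes the tRNA carrier eEF1A, held 99.99% of the eEF1A reads in each library. The remaining copies eef1a1a, eef1a1b and EEF1A2, of which the last is in mammals the form of muscle and nerve, averaged 2 to 9.25 reads per library.

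The level of eef1a1l1 was 20240 and 20290 CPM in mutant libraries and 19660 and 28350 CPM in wild-type libraries. The mutant replicates were nearly equal, and wild-type replicates 1 and 2 lay on either side of them. The log2 fold change was -0.22 ± 0.66 (SE; 95% interval -1.56 to 1.12, edgeR adjusted p = 0.923). This edgeR interval includes a 2-fold change in either direction. DESeq2 gave -0.225 with a smaller SE of 0.244, so the width depended on the fit. The eEF1 subunit gene eef1g, a scaffold of the exchange complex, had 4935 and 4541 CPM in mutants and 4562 and 6769 CPM in wild type (-0.23 ± 0.48). Again wild-type replicate 2 was the high library.

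The gene of the main translocase, eef2b, held 95.9% to 98% of the eEF2 reads. It had 5442 and 4956 CPM in mutant libraries and 6095 and 8442 CPM in wild-type libraries, and the groups did not overlap. The log2 fold change of -0.47 ± 0.49 (SE) did not pass (edgeR adjusted p = 0.726). As a share of all reads, which does not depend on TMM, eef2b made up 0.575% and 0.512% in mutants and 0.65% and 0.724% in wild type (exact permutation p = 0.333, the smallest possible). The minor copies pointed both ways without passing, at 0.47 ± 0.21 for eef2a.1, 0.25 ± 0.22 for eef2l2 and -0.76 ± 0.56 for eef2a.2, the last from 24 and 8 reads in mutants and 25 and 18 reads in wild type.

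The kinase gene eef2k, whose product phosphorylates eEF2 and slows elongation, lay at the edge of the test. It had 72.1 and 99.7 CPM in mutant libraries and 43.3 and 66.8 CPM in wild-type libraries. The groups were separated only narrowly, with replicate 2 the higher library in each genotype. The log2 fold change was 0.66 ± 0.20 (SE; 95% interval 0.24 to 1.07, edgeR adjusted p = 0.0512), and the gene was picked after its value was seen. Its adjusted p was 0.0476 without the filter on low counts, 0.0249 without mutant replicate 1 and 0.0195 without wild-type replicate 2. Without mutant replicate 2 it was 0.715. It was 0.702 without wild-type replicate 1, 0.26 without the replicate block and 0.319 with DESeq2.

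The translation factor eIF5A, which helps ribosomes through difficult peptide bonds, is encoded by a pair of genes here. The main one, eif5a, had 2387 and 2551 CPM in mutant libraries and 2073 and 2826 CPM in wild-type libraries (0.03 ± 0.40), and its groups overlapped. The other, eif5a2, had 1010 and 1381 CPM in mutants and 847 and 951.1 CPM in wild type (0.40 ± 0.33, edgeR adjusted p = 0.622). Among the termination factors, etf1, which encodes the release factor eRF1, had 359.5 and 381.7 CPM in mutants and 261.2 and 315.9 CPM in wild type (0.37 ± 0.26, edgeR adjusted p = 0.535). The main eRF3 gene, gspt1l, had 369.4 and 367.9 CPM in mutants and 306.8 and 352.3 CPM in wild type (0.17 ± 0.26). For etf1, gspt1l and eif5a2 both mutant libraries lay above both wild-type libraries, but their edgeR p-values were above 0.05 also before adjustment.

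The names that match the rule without being translation factors added no passing gene. The most read Argonaute, EIF2C2 (now AGO2), had 136.2 and 131.5 CPM in mutant libraries and 165.8 and 167.3 CPM in wild-type libraries. Replicates were very close and the groups separate, yet the log2 fold change of -0.32 ± 0.22 (SE) did not pass (edgeR adjusted p = 0.537). EIF2C1 had 15 and 11 reads in mutants and 15 and 3 reads in wild type. EEF1E1, a scaffold of the tRNA synthetase complex, had a log2 fold change of -0.31 ± 0.32, and EIF1AD, a nuclear protein with an eIF1A-like domain, had 0.15 ± 0.20.

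The spread between the wild-type replicates exceeded the difference between genotypes in 52 of the 88 factors with at least 10 reads (59.1%, against 49.3% of all genes). The first is a difference between 2 single libraries and the second between means of 2 libraries. They are not like for like, since a difference between single libraries tends to be the larger even without a genotype effect. The same limit holds for the medians that follow. Over these 88, the median absolute log2 difference was 0.16 between mutant replicates, 0.36 between wild-type replicates and 0.23 between genotypes. Over all genes with that many reads these medians were nearly equal, at 0.28, 0.27 and 0.28. Wild-type replicate 2 had the highest level of the 4 libraries in 48 of the 88 factors (54.5%, against 24.2% of all genes) and lay above wild-type replicate 1 in 75 of the 88 (85.2%, against 49.3%). Its TMM factor was 0.858, against 1.03 to 1.07 in the other libraries. Leaving out wild-type replicate 1 gave a median log2 fold change of -0.20 for the factors, while leaving out wild-type replicate 2 gave 0.18, so the sign turned with the library left out.

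Ribosomal protein genes, whose mRNAs share with those of most elongation factors a pyrimidine tract at the start that ties their translation to mTORC1, had the same library as their highest. Wild-type replicate 2 was on top in 80 of the 81 with a mean of at least 10 reads per library. Their reads made up 22.7% and 22.0% of the total in mutant libraries and 20.6% and 25.4% in wild-type libraries. Of 82 tested, 0 were called by edgeR or DESeq2, while edgeR called 3.71% of all genes. An unadjusted edgeR p under 0.05 was found for 0, against 8.73% of all genes upwards and 8.37% downwards. The log2 fold change was above 0 in 6 and below in 76, and the median was -0.15. That median became -0.47 when wild-type replicate 1 was left out and 0.18 when wild-type replicate 2 was. Among genes with a mean of at least 10 reads per library, wild-type replicate 2 was highest in 5 of 5 in the eEF1 group. In the eIF4F group it was highest in 5 of 19 such genes and mutant replicate 2 in 9 of 19.

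**Figure D4:**
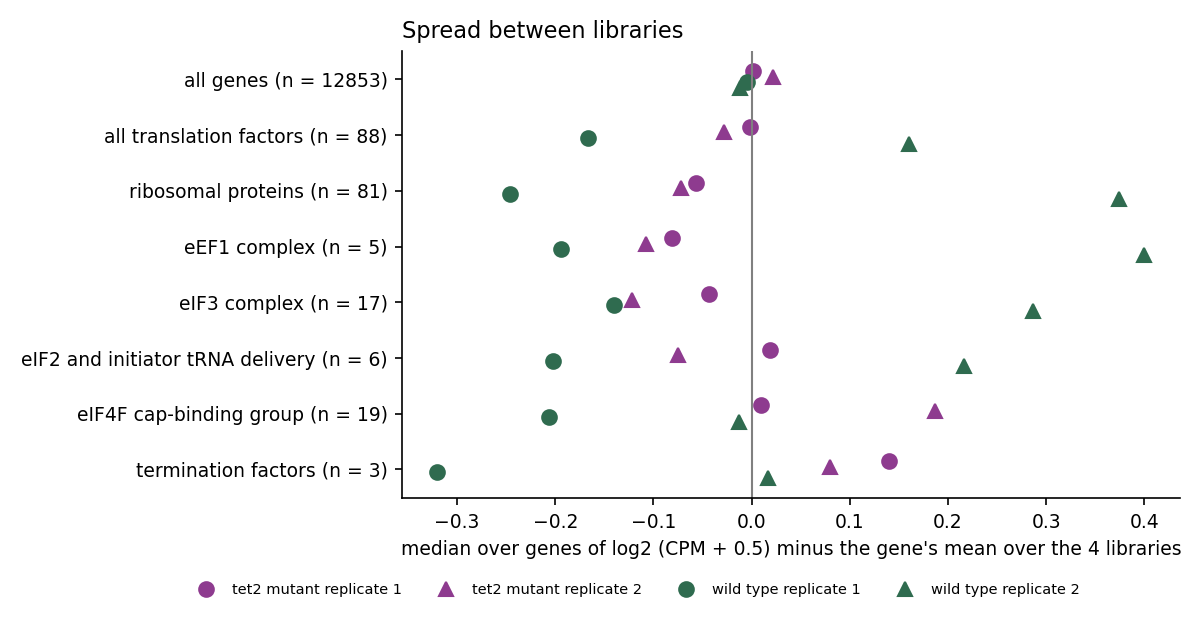
For each gene group (y axis), the median over genes of log2 (CPM + 0.5) minus the mean of that gene over the 4 libraries (x axis), for genes with a mean of at least 10 reads per library. Purple symbols are tet2 mutant and green symbols wild-type libraries, circles replicate 1 and triangles replicate 2. Over all genes the libraries lie together near 0, which is largely set by the TMM scaling. For ribosomal proteins and the eEF1 and eIF3 complexes wild-type replicate 2 stands far to the right of the other libraries and wild-type replicate 1 farthest to the left.

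The precision of the test changed with the number of reads. The median edgeR standard error among the factors was 0.46 at 10 to 100 reads per library and 0.21 at 100 to 1000. It was 0.27 at 1000 to 10000 and 0.38 at 10000 or more. Over all genes the edgeR medians in these classes were 0.406, 0.216, 0.235 and 0.405. Those of DESeq2 fell throughout, at 0.732, 0.343, 0.256 and 0.25, so the rise at high counts depended on the fit. The 3 factors that passed the adjusted p at any fold all averaged between 100 and 1000 reads. Among all genes, the share called was 6.67% at 10 to 100 reads and 2.1% at 10000 or more, and 10 of the factors lay in the highest class.

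Other genes of translation were read in the same way. Over all genes 3.71% were called by edgeR, so 0 calls in lists this short say little about them. In a list of mTORC1 components and of kinases that act on translation, 0 of 26 were called in either direction and the log2 fold changes had a median of 0.14, or of 0.07 when wild-type replicate 2 was left out. A further list outside the symbol rule held other translation factors and also genes that are not such factors, among them magoh, upf1 and naca. Of its 31 tested genes 0 were called and the median was 0.002. Before adjustment, the edgeR p was under 0.05 for 3 genes of the mTORC1 list, all upwards, and for 3 genes of the further list, of which 1 upwards. Over all genes these shares were 8.73% upwards and 8.37% downwards. DESeq2 called 0 in either list. Of 11 mitochondrial translation factors edgeR and DESeq2 called 0. At any fold 2.98% of all genes passed the edgeR adjusted p upwards, and of the 11 only the elongation factor gene tsfm did. It had 33.5 and 28.1 CPM in mutant libraries and 19.4 and 17.8 CPM in wild-type libraries (0.72 ± 0.21, edgeR adjusted p = 0.0381, and 0.472 with DESeq2).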

How the data were processed

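RNA from sorted kidney marrow progenitor cells of 2 tet2 mutant and 2 wild-type samples was sequenced as single-end reads after poly(A) selection. The authors used FastQC 0.10.1 for read quality, STAR 2.3.0 for alignment and bedtools 2.16.1 to count reads over Ensembl genes of the Zv9 build. The deposited values are raw read counts, whole numbers with no normalization. The treatment of strand, of overlapping genes and of reads with several matches is not described in the sources used here. No genome of this build was used, so no coordinates are given. Current symbols were matched for 20769 gene identifiers, 82 of them among the genes described. The table had 0 columns without a sample, and the 4 libraries differed by more than counting error (chi-square per degree of freedom 19.6 to 74.9).

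Genes with more than 5 reads over the libraries (17242) were kept. TMM scaling was followed by the two-sided quasi-likelihood F-test of edgeR (legacy form, replicate number as a block beside genotype, 1 residual degree of freedom), with Benjamini-Hochberg adjustment over all genes. A call needed an adjusted p below 0.05 together with a log2 fold change over 1 in either direction. The filter, thresholds and block follow the study, which used DESeq2. The standard error of a log2 fold change was its size divided by the root of F. Shares of reads were compared by an exact permutation test. Fits were run with edgeR 4.0.16 and DESeq2 1.42.0 under R 4.3.3 (with limma 3.58.1). They were also run on simulated counts drawn without a replicate effect, which cannot check how the block treats such an effect.

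The genes, their roles and the other gene lists were chosen with earlier results of these data known. Genes were named if they passed an adjusted p of 0.05, or if in their role they had the highest mean level or the largest absolute log2 fold change with at least 10 reads per library. Genes named outside this rule were picked after their values were seen. The alternatives were other normalizations, other filters, no replicate block, DESeq2, edgeR's bias-adjusted form, summed copies of a factor, and leaving out each library in turn (without the block). No sequences were used here.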

Additional observations from a re-analysis of the deposited data

How the results depend on the processing

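The number of translation factors called was 0 higher and 1 lower, always pabpc1b, in all 11 alternatives that refit the genes, with a log2 fold change of -2.25 to -1.67 for pabpc1b. Summing the copies of PABPC1 gave -0.48, which was not called. Over all genes, 311 were called higher and 328 lower. These counts were 121 and 137 with no replicate block, 105 and 119 with DESeq2, 89 and 109 with edgeR's bias-adjusted form, and 199 to 457 higher and 225 to 473 lower with 1 library left out. With TMM factors from other genes 216 were called lower. At an adjusted p under 0.05 and any fold, 1 factor was higher and 2 were lower. The count of higher factors was 0 with DESeq2 size factors, with TMM factors from other genes, with no replicate block, with DESeq2 and with the bias-adjusted form, 2 with no filter and with the filter of 10 reads in 2 libraries (eef2k was added), and 0 to 1 with 1 library left out, where the gene was eef2k and not eif4g2a. The count of lower factors was 1 with TMM factors from other genes, with no replicate block, with DESeq2 and with the bias-adjusted form (EIF3H (3 of 3) was lost each time), and 1 to 2 with 1 library left out. The median log2 fold change of the factors was -0.02, and -0.20 to 0.18 with 1 library left out, which also changed the sign of 8 to 27 of the 93 single values. No block was used when a library was left out, and the single library left in its group is then assumed to vary like the other group. The replicate numbers in the labels are only numbers. Deviations of replicate 1 from its group mean correlated between genotypes with r = 0.16 over 12853 genes and 0.36 over 88 factors, from 2 pairs, and without the block 121 and 137 genes were called. Depth limited the factors with 10 to 100 reads per library, whose edgeR standard errors had a median of 0.46. The edgeR errors were also larger at 10000 or more reads (0.38) than at 100 to 1000 (0.21). Median DESeq2 errors over all genes did not rise there, at 0.25 against 0.343.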

Other observations

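Where a factor has several gene copies, most of its reads usually came from a single copy in every library. The copy eif3ba held 99.97% to 100% of the eIF3B reads, eif4a1b 88.4% to 90.6% of the eIF4A reads, eif3ea 98% to 98.5% of the eIF3E reads and gspt1l 92.6% to 93.9% of the eRF3 reads. The pair eif3ja and eif3jb was split more evenly, and eif3ja held 55.2% and 59.5% of the eIF3J reads in tet2 mutant libraries and 66.0% and 60.9% in wild-type libraries. A further release factor gene, ETF1 (2 of 2), had 1 and 0 reads in mutant libraries and 0 and 0 reads in wild-type libraries, and eif3bb had 1 and 1 reads in mutants and 2 and 0 reads in wild type.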
